A study of Mus musculus with 6 samples.

Results

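The insulin-like growth factor (IGF) axis was followed here through 10 genes chosen by name: the ligands Igf1 and Igf2, the receptors Igf1r and Igf2r, and the binding proteins Igfbp2, Igfbp3, Igfbp4, Igfbp5, Igfbp6 and Igfbp7. All 10 were among the 17551 genes of the deposited count table, and all 10 passed the filter on low counts that left 14643 genes to test. RNA-seq was done on 6 mouse neurosphere cultures, which are free-floating spheres of neural stem and progenitor cells, all on a C57BL/6 background. The genotype of 3 cultures is ACVR1 G328V and that of the other 3 is ACVR1 WT. ACVR1 is a bone morphogenetic protein receptor of type I, and in G328V a valine replaces a glycine of it. The medium of every culture was DMEM/F12, supplemented with N2, B27, EGF and FGF. The series text abbreviates the mutant cultures as NPAC and the control cultures as NP, and the labels used here spell out neither these letters, nor ages, nor the animals or clones behind the replicates. The p-values below therefore measure the spread between these samples only.

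IGF1 and IGF2 are secreted hormones that activate the tyrosine kinase receptor IGF1R, which signals through insulin receptor substrates to PI3K and AKT and supports growth and survival of neural progenitors. IGF2R, the cation-independent mannose 6-phosphate receptor, takes up IGF2 for breakdown and carries lysosomal enzymes. The IGF binding proteins (IGFBPs) are secreted carriers that hold IGFs away from the receptor or release them near it, and several also act on cells without IGFs. The N2 and B27 supplements contain insulin, which can activate the same pathway.

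The promoters of the 3 members whose groups did not overlap in level, Igf1, Igf2 and Igfbp4, are shown to give the sequence context of those genes. Each is the 250 bases before a transcription start in RefSeq on GRCm38.p6, read 5′ to 3′ on the gene's strand. Capitals mark matches, on either strand, to GGCGCC (an element bound by SMAD1/5), CAGAC (a SMAD-binding pentamer) and TATAAA (the TATA box), and no match overlapped another.
Igf1 chr10:87860861-87861110 plus strand: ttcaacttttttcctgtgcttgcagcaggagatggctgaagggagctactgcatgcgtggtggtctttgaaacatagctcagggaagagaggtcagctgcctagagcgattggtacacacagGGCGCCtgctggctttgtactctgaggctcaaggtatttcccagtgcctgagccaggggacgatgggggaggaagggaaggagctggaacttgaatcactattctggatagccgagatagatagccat
Igf2 chr7:142657497-142657746 minus strand: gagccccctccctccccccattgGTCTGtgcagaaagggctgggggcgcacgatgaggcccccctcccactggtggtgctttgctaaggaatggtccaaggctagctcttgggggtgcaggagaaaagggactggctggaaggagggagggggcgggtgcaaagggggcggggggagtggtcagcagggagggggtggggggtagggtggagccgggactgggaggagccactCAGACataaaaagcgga
Igfbp4 chr11:99040994-99041243 plus strand: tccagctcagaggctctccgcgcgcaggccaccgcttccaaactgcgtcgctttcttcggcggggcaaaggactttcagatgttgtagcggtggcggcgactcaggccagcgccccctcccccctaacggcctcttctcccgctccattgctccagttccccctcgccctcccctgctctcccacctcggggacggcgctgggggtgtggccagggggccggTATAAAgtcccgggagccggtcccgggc
The Igf1 window held 1 GGCGCC, whose first base lies 128 bases before the start, and 9.59% of the 32841 windows of this length held that element. It was found in 1 of the 10 members, Igf1. RefSeq lists 4 starts for Igf2, and the one shown is the most downstream; CAGAC was found there once on each strand, and 42.2% of all windows held it, as did windows of 5 of the 10 members. The Igfbp4 window held TATAAA with its first base 28 bases before the start, and 12.4% of all windows held TATAAA somewhere on either strand. The palindrome GTCTAGAC, a SMAD element present in 0.167% of windows, matched in 0 of the 14 windows of the members. A match is a run of letters, and gene counts do not tell which start a transcript used.

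The 6 libraries held 115953495 to 191115532 counts. Rn45s, the ribosomal RNA precursor, made up 3.16% to 4.39% of counts in G328V libraries and 4.73% to 10.7% in WT libraries. Its part in the differences between the groups was not tested. Levels are given in CPM, counts scaled to a common library size after TMM normalization, and values by replicate run in the order 1, 2, 3 for G328V and 1, 3, 70A for WT. Acvr1 ranged from 244 to 650.1 CPM among G328V libraries and from 42.4 to 100.0 CPM among WT libraries, without distinction of the mutant from the normal allele. Xist had at least 76093 counts in each G328V library and at most 206 in each WT library, while Ddx3y had at most 6 counts in G328V and at least 3119 in WT, so sex-linked expression and genotype cannot be told apart. Of the 10 neural stem markers, Nes, Sox2 and Vim were found in every library at 91.2 CPM or more, and Hes1, Prom1 and Pax6 at 2.83 CPM or more. The other 4 were nearly absent from some: Hes5 reached at most 0.244 CPM, Fabp7 ranged from 0.182 to 1313 CPM, Slc1a3 from 0 to 55.1 CPM and Msi1 from 0.716 to 40.6 CPM. In the labels every library has the same protocol text, which names a stranded TruSeq kit and a Pico kit and not which library used which, so the part of the kit in differences between libraries was not tested. WT replicate 1 stood apart by Olig2, at 416 CPM against at most 0.938 CPM elsewhere, and G328V replicate 1 by Sox10, at 65.2 CPM against at most 0.0574 CPM elsewhere.

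Both ligands were higher in every G328V library than in any WT library. Igf1 lies on chromosome 10 from 87858265 to 87937042 (GRCm38). G328V replicates 1, 2 and 3 gave Igf1 levels of 10.2, 130.0 and 6.40 CPM. WT replicates 1, 3 and 70A gave 0.382, 0.511 and 2.87 CPM. G328V replicate 2 stood far above the other libraries, and the gap between the lowest G328V and the highest WT library was small beside it. The mean of Igf1 was 48.9 ± 70.3 CPM for G328V against 1.26 ± 1.40 CPM for WT (SD, n = 3 each), which edgeR fitted as 5.28 log2 units (SE, the standard error, 1.61). It did not pass edgeR's quasi-likelihood test over 14643 genes (adjusted p = 0.997). DESeq2 with all 6 libraries gave it no p-value, as by default for genes with an outlying count. With 1 library left out DESeq2 called Igf1 higher in 4 of 6 fits, and not without G328V replicate 2 (adjusted p = 0.257) or WT replicate 3 (0.0685). All 4 calls kept G328V replicate 2, and with fewer libraries outlying counts are checked less strictly. These calls therefore do not show a stable difference. Without G328V replicate 2 the edgeR log2 difference was 2.72. In bulk RNA, fewer cells that express a gene and less of its RNA in each cell cannot be told apart.

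Igf2, an imprinted gene that is expressed mainly before birth, lies on chromosome 7 from 142650766 to 142666816, on the minus strand. Its level was 2.79, 3.16 and 22.3 CPM in the G328V replicates. The WT values were 0.943, 0.432 and 0.247 CPM for replicates 1, 3 and 70A. The library with the most Igf2 was G328V replicate 3, not the one with the most Igf1. The mean was 9.43 ± 11.2 CPM for G328V against 0.540 ± 0.360 CPM for WT (SD, n = 3 each). By edgeR this was 4.12 log2 units (SE 1.20, adjusted p = 0.997). DESeq2 called Igf2 higher in G328V with a log2 difference of 4.09 (adjusted p = 0.0119). That call was lost without G328V replicate 3 (log2 difference 2.44, DESeq2 adjusted p = 0.146), without WT replicate 3 (3.96, 0.0745) and without WT replicate 70A (3.74, 0.0652). An annotated gene on the same strand, Gm49394, shares 3596 exon bases with Igf2 and is not listed in the count table, so reads of the shared exons cannot be assigned to one of them.

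For H19 and Kazald1 the lowest G328V library lay above the highest WT library, as for 5.25% of all tested genes. H19 was the 1 such gene among 6 tested in its list below, and Kazald1 the 1 among 10. They were set side by side after their values were seen. H19, the noncoding RNA whose imprinted locus shares enhancers with Igf2, had 6.12, 64.6 and 3.36 CPM in G328V replicates, against 0.0163 (2 counts), 2.75 and 2.37 CPM in WT replicates. G328V replicate 2 held most of it, as for Igf1, and the groups differed by 3.85 log2 units (SE 1.87, edgeR adjusted p = 0.997, DESeq2 adjusted p = 0.37). Without G328V replicate 2 the H19 difference was 1.47. Kazald1, which encodes a secreted relative of the binding proteins, had 6.80, 42.0 and 8.07 CPM in G328V replicates, against 1.06, 0.585 and 0.689 CPM in WT replicates. The WT libraries lay close together for Kazald1, and the groups differed by 4.61 log2 units (SE 0.94, edgeR adjusted p = 0.997, DESeq2 adjusted p = 6.1e-05). DESeq2 called it with any 1 library left out, with 0.00196 as the highest adjusted p.

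Of the receptors, Igf1r differed by 0.02 log2 units (SE 0.41, edgeR adjusted p = 0.999), and its groups overlapped. Igf1r, which encodes the signalling receptor, lies on chromosome 7 from 67952827 to 68233668. G328V replicates 1, 2 and 3 had 176, 472 and 265 CPM of it. The WT replicates had 349, 232 and 317 CPM. The lowest and the highest value were both found in G328V, and the sign of the difference turned with several settings. Igf2r, on chromosome 17 from 12682406 to 12769664, had 1360.1, 526 and 583 CPM in G328V replicates, against 324, 842 and 608 CPM in WT replicates. For Igf2r only G328V replicate 1 lay above all WT libraries. It differed by 0.48 log2 units (SE 0.52, edgeR adjusted p = 0.997), and by -0.09 without G328V replicate 1. Airn, a noncoding RNA transcribed across Igf2r on the other strand, lay at 0.949 to 5.80 CPM and shares 0 exon bases with Igf2r in the annotation.

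Igfbp4 was the binding protein that was lower in every G328V library than in any WT library. This gene, on chromosome 11 from 99041244 to 99054392, encodes a carrier that restrains IGF action until it is cleaved. G328V replicates 1, 2 and 3 gave Igfbp4 levels of 14.1, 25.5 and 52.6 CPM. WT replicates 1, 3 and 70A gave 133, 70.4 and 1794 CPM. WT replicate 70A alone held more than the other libraries together, while WT replicate 3 lay little above G328V replicate 3. The mean was 30.7 ± 19.8 CPM for G328V against 666 ± 978 CPM for WT (SD, n = 3 each). By edgeR this was -4.44 log2 units (SE 1.42, adjusted p = 0.997). DESeq2 called Igfbp4 lower in G328V, by -4.46 log2 units (adjusted p = 0.0271). Leaving out WT replicate 70A brought the edgeR value to -1.73, and DESeq2 then made no call (-1.77, adjusted p = 0.359). Nor did it without G328V replicate 1 (-4.11, DESeq2 adjusted p = 0.155) or G328V replicate 2 (-4.34, 0.1). WT replicate 70A also had the highest summed level of the 8 fibroblast and meningeal markers, 551 CPM, where WT replicates 1 and 3 had 36.4 and 64.8 CPM and the G328V libraries 79.3 to 234 CPM. Col3a1 made up 455 CPM of that sum, Col1a2, Lum and Dcn had no counts in 3 or more libraries each, and the part of such cells in the Igfbp4 difference was not tested.

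**Figure D1:**
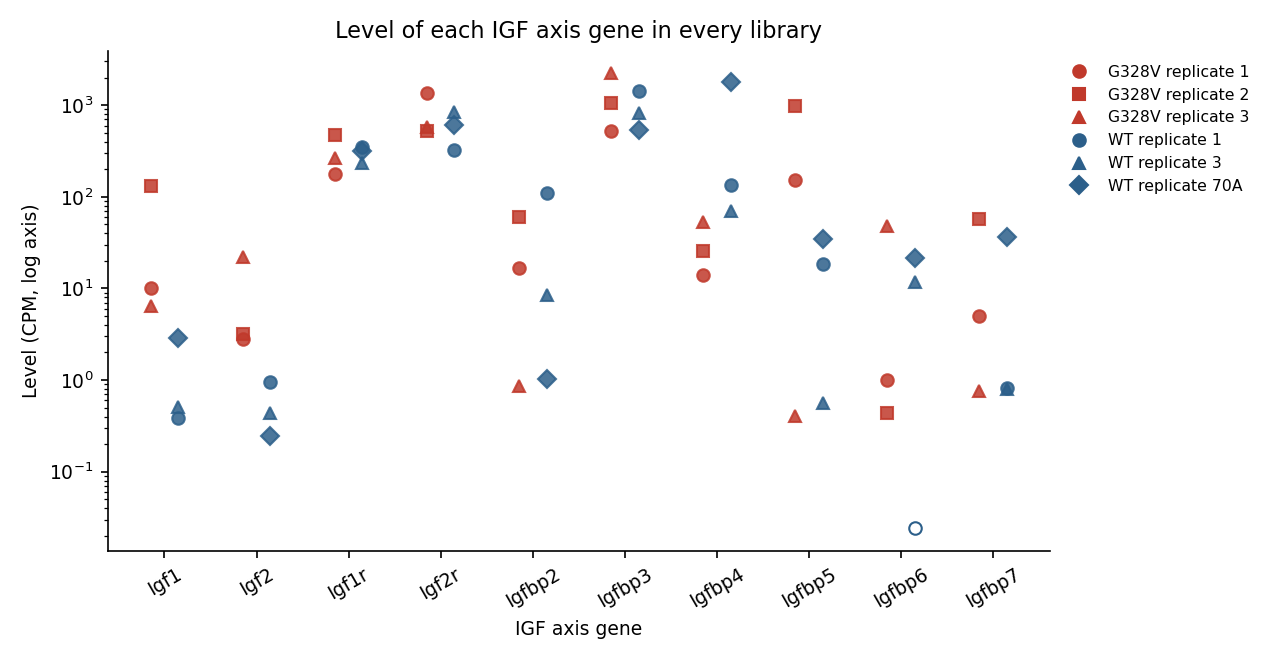
Level of the 10 IGF axis genes in CPM on a log axis, 1 point per library, red for G328V and blue for WT, with the shape giving the replicate. Igf1 and Igf2 show all red points above all blue points and Igfbp4 the reverse, and the open circle is the limit of 0.0244 CPM for Igfbp6 in WT replicate 1, which had 0 counts.

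Igfbp3 was the most abundant binding protein in 5 of the 6 libraries. It carries most circulating IGF in the blood, and the gene lies on chromosome 11 from 7206086 to 7213923. Its level was 522, 1051 and 2219.7 CPM in the G328V replicates, against 1415, 812 and 538 CPM in the WT replicates. The groups overlapped, and the spread within each was wider than the difference between them. The difference was 0.46 log2 units (SE 0.61, edgeR adjusted p = 0.997), and it was -0.23 without G328V replicate 3.

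Igfbp5 and Igfbp2, neighbours on chromosome 1, had their highest values in different libraries, G328V replicate 2 and WT replicate 1. G328V replicate 2 was second for Igfbp2, and G328V replicate 3 was lowest for both. Igfbp5, a matrix-bound carrier at 72857932 to 72874884, had 154, 974 and 0.402 CPM in G328V replicates, against 18.3, 0.568 and 34.4 CPM in WT replicates. Igfbp5 differed by 4.41 log2 units (SE 2.39, edgeR adjusted p = 0.997, DESeq2 adjusted p = 0.392), and by 2.12 without G328V replicate 2. Without G328V replicate 3 DESeq2 called Igfbp5 higher in G328V (adjusted p = 0.0487). Igfbp2, a carrier found in fetal brain and in glioma, at 72824503 to 72852474, had 16.9, 60.2 and 0.865 CPM in G328V replicates. The WT values were 110.5, 8.47 and 1.04 CPM in replicates 1, 3 and 70A. WT replicate 1, the library with Olig2, was the highest, and without it the Igfbp2 log2 difference turned from -0.62 (SE 1.81) to 2.43. Oligodendrocyte lineage markers summed to 1047 CPM in that library and to 14.5 to 304 CPM in the others, over 7 of 8 markers, and their part in the Igfbp2 level was not tested.

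Igfbp6 and Igfbp7 were each high in 1 G328V library and in part of the WT libraries. Igfbp6, a carrier that prefers IGF2, lies on chromosome 15 from 102144362 to 102149511. Its counts were 170, 53 and 8930 for the G328V replicates, against 0, 2089 and 3767 for WT replicates 1, 3 and 70A. These are 0.991, 0.440 and 48.6 CPM against 0, 11.9 and 21.6 CPM. The 0 counts allow a level of up to 0.0244 CPM, from 3 counts. G328V replicate 3, the library with the most Igf2, also had the most Igfbp6. Igfbp6 differed by 0.58 log2 units (SE 2.40, edgeR adjusted p = 0.997), and by -3.96 without G328V replicate 3. Igfbp7, a related protein with low affinity for IGFs that is found in vessel walls and matrix, lies on chromosome 5 from 77349240 to 77408041. It had 4.99, 57.8 and 0.761 CPM in G328V replicates, against 0.821, 0.807 and 36.2 CPM in WT replicates. A single library of each group was high and the others low, and the groups differed by 0.75 log2 units (SE 1.95, edgeR adjusted p = 0.997), or by -2.13 without G328V replicate 2. Igfbp7 shares 85 exon bases with Polr2b on the other strand. Its counts per fragment were 1.57 in G328V replicate 3 (140 counts) and 1.71 in WT replicate 1 (101 counts), against 1.93 to 1.97 in the other libraries. Igfbp6 and Igfbp5, with no overlapping gene in the annotation, also had low ratios, down to 1.66 and 1.72. The part of the overlap in the Igfbp7 ratio was not tested.

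**Figure D2:**
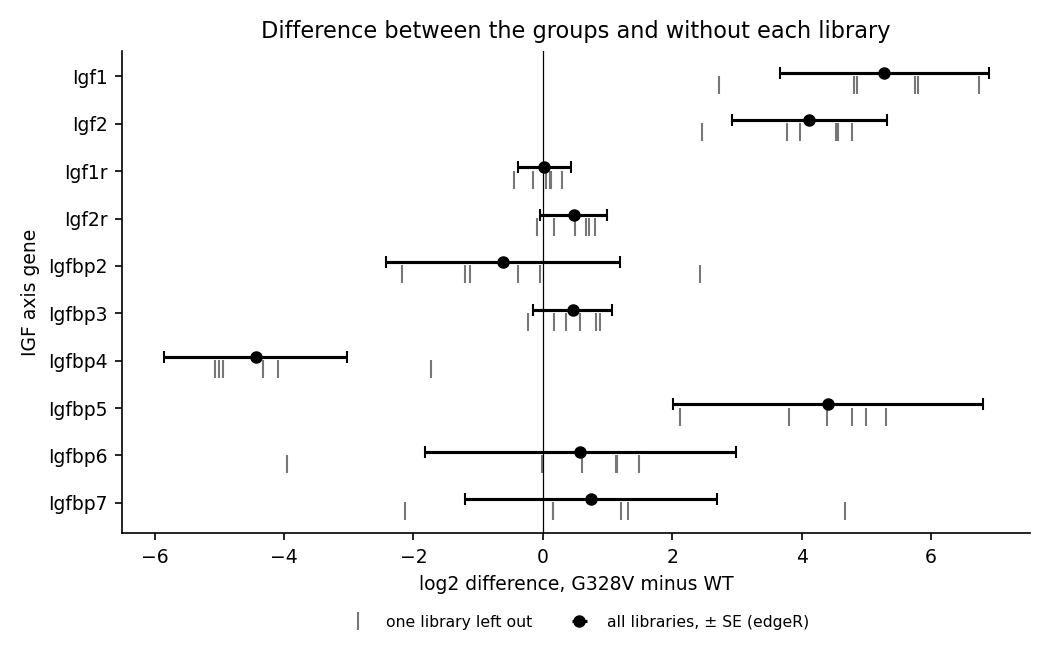
Log2 differences of the 10 genes, G328V minus WT, from edgeR with all 6 libraries (points, bars ± 1 standard error) and with 1 library left out (grey ticks). The differences of Igf1, Igf2 and Igfbp5 stayed above 0 and that of Igfbp4 below 0 whichever library was left out, while those of the other 6 genes turned sign at least once.

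Across the 10 members, edgeR called 0 at an FDR under 0.05, as it called 0% of all 14643 tested genes. Xist and Ddx3y, with groups far apart, were not called either (Xist 443 to 795 CPM in G328V, at most 1.18 CPM in WT). The absence of an edgeR call is thus no sign of equal levels. At an unadjusted p under 0.05 edgeR counted 3 members, Igf1, Igf2 and Igfbp4, against 4.06% of all tested genes. The limma-voom fit also called 0 members and 0 genes, and at an unadjusted p below that level it counted 1 member, Igfbp4, against 4.03% of genes. Groups did not overlap for the same 3 members, against 9.70% of tested genes. Of these, 2 were higher in G328V and 1 was lower, where the shares of all genes were 5.25% and 4.45%. DESeq2 called 2 of 10 members against 0.986% of the 17551 genes it fitted, with Igf2 as higher (0.536% of genes) and Igfbp4 as lower (0.450%). Leaving out a G328V library, DESeq2 called 2 members without replicate 1 (1.65% of genes), 1 without replicate 2 (2.33%) and 3 without replicate 3 (1.89%). Leaving out a WT library, it called 3 without replicate 1 (4.20%), 1 without replicate 3 (1.56%) and 1 without replicate 70A (2.16%). Positive log2 differences were found for 8 of 10 members and for 49.7% of all tested genes, with medians of 0.53 for the members and about 0 for all genes.

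The members varied among libraries of both groups. The range from the lowest to the highest library was 4 or more on the log2 CPM scale for 7 of 10 members, and 28.0% of all tested genes had such a range, a threshold chosen after the values were seen. Igfbp6 and Igfbp5 had the widest ranges, 11.91 and 11.20, and that of Igfbp6 depends on the prior count because 1 library had 0 counts. Igf1r, Igf2r and Igfbp3 had ranges of 1.43, 2.07 and 2.09, near the median of 1.81 over all tested genes. The median standard deviation within a group was 1.93 for the members and 0.67 for all tested genes, in log2 CPM. Highest values were spread over 5 libraries. G328V replicate 2 was highest for Igf1, Igf1r, Igfbp5 and Igfbp7, and G328V replicate 3 for Igf2, Igfbp3 and Igfbp6.

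**Figure D3:**
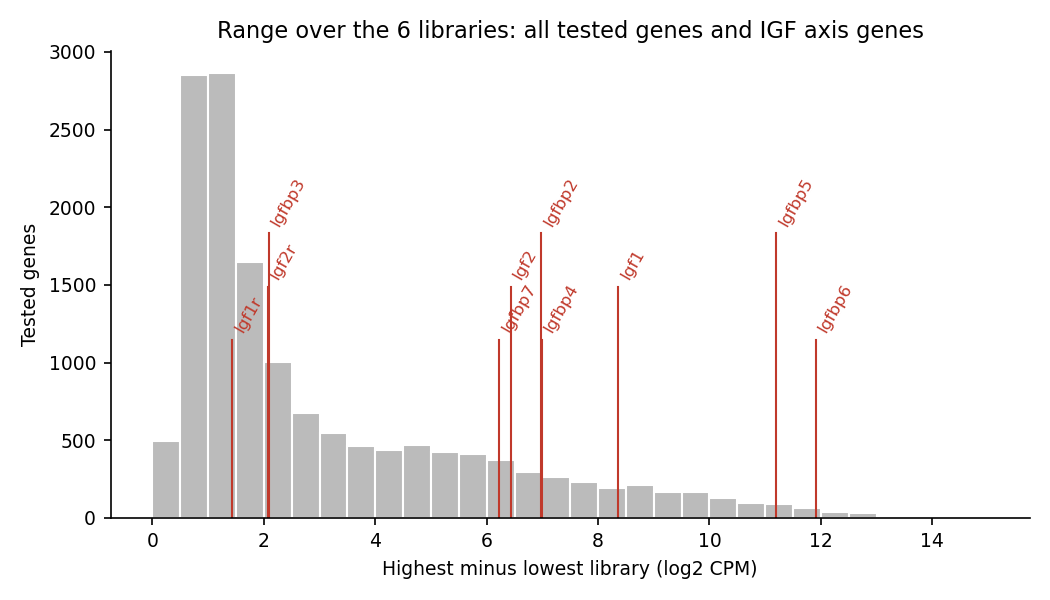
Number of tested genes by the range from the lowest to the highest of the 6 libraries in log2 CPM (grey bars, bins of 0.5), with the 10 IGF axis genes as red lines whose height has no meaning. Igf1r, Igf2r and Igfbp3 stand at 1.43 to 2.09, and the other members at 6.22 or more.

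Levels of different genes were compared per kilobase of exon. By the median over the 6 libraries, Igfbp3 came first, at 298 CPM per kilobase, followed by Igf2r at 64, Igf1r at 17.3 and Igfbp4 at 13.9. With the exon union as length, the order of the last pair differed by group. Igf1r exceeded Igfbp4 in each G328V library and lay below it in each WT library. With the longest transcript as length, Igf1r lay above Igfbp4 in WT replicate 3 too, so this split depends on the length taken. Igfbp3 exceeded Igf2r in each library, by the smallest margin in G328V replicate 1 (167 against 146 CPM per kilobase). Igf2r exceeded Igf1r in each library, with a ratio of 1.67 in WT replicate 1 and 14 in G328V replicate 1 as the extremes. Lower medians of 6.86, 5.78, 4.39 and 2.41 CPM per kilobase were those of Igfbp2, Igfbp6, Igfbp5 and Igfbp7. Their ranges overlapped one another and that of Igfbp4. In single libraries Igfbp5 and Igfbp2 exceeded Igf2r. These were G328V replicate 2 (Igfbp5 162 against Igf2r 56.5 CPM per kilobase) and WT replicate 1 (Igfbp2 59.8 against Igf2r 34.8). The ligands had the lowest medians, 0.468 for Igf1 and 0.326 for Igf2, with overlapping ranges. Igf1 exceeded Igf2 per kilobase 2.11-fold in G328V replicate 1, 23.8-fold in G328V replicate 2 and 6.72-fold in WT replicate 70A, and in the other 3 libraries Igf2 was the higher of the pair.

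The make-up of the binding protein transcripts differed from library to library. Igfbp3 made up 79.5%, 57.4% and 92.6% of the summed Igfbp level per kilobase in G328V replicates 1, 2 and 3. It made up 82.8% and 89% in WT replicates 1 and 3 but 27.1% in WT replicate 70A, where Igfbp4 took 64.1%. The second place went to Igfbp5 in G328V replicates 1 and 2 (12.3% and 27.7%), to Igfbp6 in G328V replicate 3 (5.7%), to Igfbp2 in WT replicate 1 (11%) and to Igfbp4 in WT replicate 3 (5.47%). The share of Igfbp4 was 0.989% to 1.56% in G328V and 5.47% to 64.1% in WT, so the groups did not overlap in it, as they did not in its level. The summed level was 209.9 to 766 CPM per kilobase in G328V and 291 to 634 in WT.

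**Figure D4:**
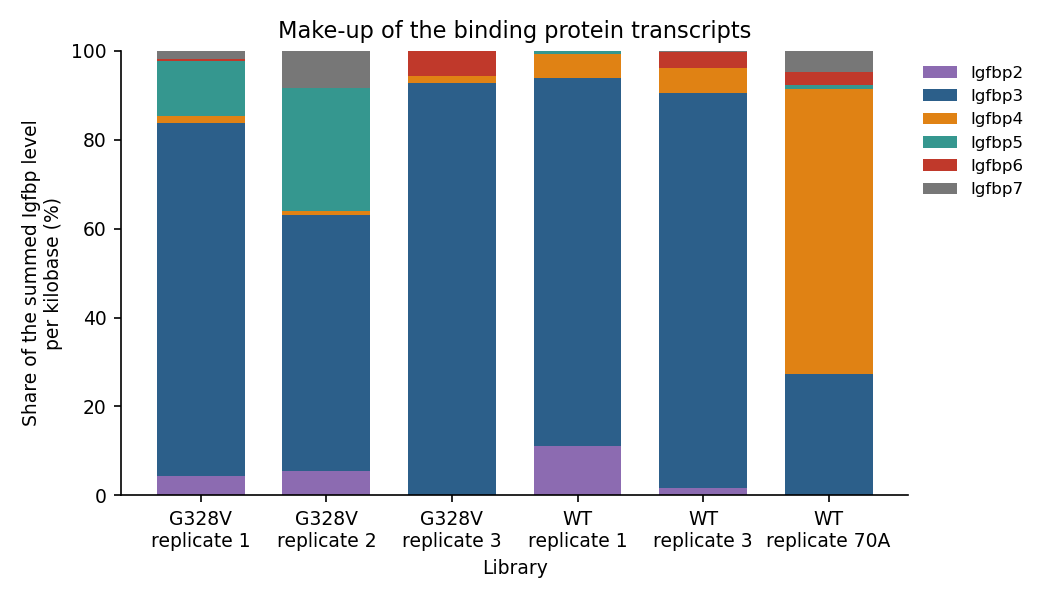
Share of each binding protein gene in the summed level per kilobase of Igfbp2 to Igfbp7, in percent, 1 bar per library. Igfbp3 (blue) is the largest part of 5 bars, and Igfbp4 (orange) takes 64.1% of the bar of WT replicate 70A.

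The genes that carry the signal from the receptors were read from lists of the pathway. Among 10 tested insulin and IGF receptor adaptors edgeR and DESeq2 called none, and 3 had positive and 7 negative differences (median -0.51 log2 units). DESeq2 gave no p-value for Irs4 and Sos1, so it could not call them. An unadjusted edgeR p under 0.05 was found for 2 (4.06% of all genes), and the same 2, Irs1 and Grb2, were lower with groups that did not overlap (4.45% of all genes). Both were named after their values were seen. Irs1, which docks PI3K to the activated receptor, had 46.5, 45.6 and 37.7 CPM in G328V replicates, against 128, 65.6 and 158 CPM in WT replicates. The G328V libraries lay close together, and the groups differed by -1.44 log2 units (SE 0.37, edgeR adjusted p = 0.997, DESeq2 adjusted p = 0.0936). It ranged from -1.74 to -1.17 when any 1 library was left out. Grb2, an adaptor to the RAS pathway, had a mean of 85.3 ± 9.53 CPM for G328V against 124 ± 7.48 CPM for WT (SD, n = 3 each), or -0.54 log2 units (SE 0.21, edgeR adjusted p = 0.997). The adaptors with the highest mean levels were Insr, Irs4 and Sos1, and 1 library decided the means of 2 of them. Irs4, another receptor substrate, reached 1354 CPM in WT replicate 3 and 231 CPM in G328V replicate 1, with no more than 1.11 CPM elsewhere. Sos1, a RAS exchange factor, reached 1052 CPM in WT replicate 3, with 103 to 119 CPM elsewhere. The insulin receptor gene Insr had a mean of 179 ± 62.3 CPM for G328V against 287 ± 125 CPM for WT (SD, n = 3 each), with overlapping groups.

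Of 18 tested genes of the PI3K, AKT and mTOR list, edgeR and DESeq2 called none, with 5 positive and 13 negative differences and a median of -0.06. An unadjusted edgeR p under 0.05 was found for 1 and groups that did not overlap for 2, both near the shares of 4.06% and 9.70% over all genes. Akt1, a kinase that carries the signal from PI3K, and Rptor, a subunit of the mTOR complex that promotes growth, were among the most abundant of the list and had differences of -0.09 and -0.01 log2 units (SE 0.28 and 0.21). The 2 were Pik3r2, a regulatory subunit of PI3K, at -0.94 log2 units (SE 0.32), and Pdpk1, the kinase that activates AKT, at 0.13 (SE 0.19), and both were named after their values were seen. Of 15 FOXO target genes, which rise when AKT is inactive, edgeR and DESeq2 called none, 0 had an unadjusted edgeR p under 0.05 and in 0 were the groups apart, with 6 positive and 9 negative differences and a median of -0.19. Cdkn1b and Klf6, 2 of the 3 most abundant of these beside Insr, had differences of 0.74 and -0.23 log2 units (SE 0.55 and 0.30).

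Among the 10 tested carriers, proteases and relatives of the binding proteins, edgeR called 0 and DESeq2 called 1, Kazald1, as higher (0.536% of all genes), which was also the 1 gene with an unadjusted edgeR p under 0.05 (4.06% of all genes). Of these 10 genes 6 had positive and 4 negative differences, with a median of 0.76. Stc1 and Htra1, a stanniocalcin that inhibits the IGFBP4 protease and a protease that cleaves IGFBPs, had differences of 1.37 and -1.21 log2 units (SE 1.42 and 0.74). Esm1, a secreted proteoglycan with an IGFBP-type domain, had 0.0813 CPM in WT replicate 1 and 35.9 to 299.6 CPM elsewhere. Of 6 genes that bind Igf2 mRNA or neighbour the imprinted genes, edgeR and DESeq2 called none and 0 had an unadjusted edgeR p under 0.05, with 5 positive differences and a median of 0.49. Igf2bp1, which binds Igf2 mRNA, had 70.4, 0.0332 and 145 CPM in G328V replicates, against 0.130, 19.1 and 158 CPM in WT replicates, so either group held libraries with almost none of it. Igf2bp2 and Igf2bp3 had differences of -0.26 and 0.39 log2 units (SE 0.37 and 0.33).

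Other cell types that make IGFs or IGFBPs were read from their markers. The microglia and macrophage markers, cells that secrete IGF1 in the brain, summed to 0.772 to 3.82 CPM in G328V and 0.431 to 4.32 CPM in WT over the 5 of 9 markers in the count table. Cx3cr1, P2ry12 and Ptprc had no counts in 3 or more libraries each, and C1qa, C1qb and C1qc had 0 fragments in every library of the Cufflinks table. Choroid plexus markers, of a tissue that makes Igf2, summed to 14.1 to 42.6 CPM in G328V and 2.66 to 54.3 CPM in WT, with Ttr, Kl and Otx2 without counts in 3 or more libraries each. Endothelial and mural markers summed to 78.6 to 313 CPM in G328V and 6.06 to 161 CPM in WT over 9 of 10 markers. The highest of these sums was in G328V replicate 3, where Rgs5 alone held 299 CPM. Of the other markers in that library, Anpep had 12.3 CPM, and Pecam1, Cdh5, Kdr, Tek, Pdgfrb, Kcnj8 and Abcc9 at most 0.789 CPM each. The part of such cells in its Igf2 and Igfbp6 levels was not tested.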

How the data were processed

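Total RNA of 6 neurosphere cultures was column-extracted, depleted of ribosomal RNA and read as stranded paired-end libraries, per the labels' protocols. The submitters' processing notes name mm10, FastQC 0.11.3, TopHat2 2.0.13 and Bowtie2 2.2.1 without roles, with neither annotation nor counting settings, strand use included. In the deposited HTSeq table values are raw whole-number counts per gene. In the Cufflinks table the authors deposited, values are estimated counts per gene in fragments, rounded here before testing. The median ratio of both was 1.95 to 1.96 counts per fragment over 8924 genes, so counts are not independent molecules and the limit of 3 counts covers counting error only. For the members the ratio was computed per library.

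The main test, G328V against WT, was the quasi-likelihood F-test of edgeR 4.0.16 (R 4.3.3) with a legacy robust fit, TMM scaling and filterByExpr at a minimum count of 10. P-values were adjusted over 14643 genes by Benjamini-Hochberg, and each SE is the difference divided by the root of F. The 15 alternatives per gene included limma 3.58.1 (voom) and DESeq2 1.42.0, which gave no adjusted p for 1030 genes, kept as NA. Fits were tested on simulated data, with the spread of each gene taken from the edgeR fit. There edgeR and limma-voom called few unchanged genes and DESeq2 many, also where no gene had been changed. How many changed genes each tool found is not reported here, so the tools are not ranked by this. Levels per kilobase used the union of exons in GENCODE vM21 (GRCm38), and log2 CPM a prior count of 2. The members and lists were chosen with earlier results of these data known. The naming rule took all members, the 3 most abundant genes of each pathway list, genes called by either tool, H19 and Airn; 1 gene so chosen is not reported here. Promoters are RefSeq's, matched by symbol for 10 of 10 members. Replicate numbers follow the labels.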

Additional observations from a re-analysis of the deposited data

How the results depend on the processing

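The edgeR count of 0 genes and 0 members held under every other edgeR setting and limma-voom, whereas DESeq2 called 173 genes and 2 members, and 272 to 727 genes and 1 to 3 members with 1 library left out. The DESeq2 calls of Igf2 and Igfbp4 were each lost without 3 of the libraries in turn. Igf1, Igf2, Igfbp4, Igfbp5, Irs1, Kazald1 and H19 kept their direction under all 15 alternatives. So did other named genes with small differences, among them Pdpk1 (0.13) and Klf6 (-0.23), so a kept direction is not particular to large differences. Igf1r turned sign under RLE size factors (-0.0032), DESeq2 (-0.0026) and limma-voom (-0.08). Library totals without scaling factors moved the median of all genes to 0.12 and turned Akt1 to 0.05 and Rptor to 0.11. The replicate block used the numbers of the labels, of which 1 and 3 are shared by both groups. G328V replicate 2 and WT replicate 70A had no partner and added nothing to its differences. With so few libraries left, its count of 0 called genes was nearly fixed in advance. The block gave log2 differences of 4.19 for Igf1, 3.63 for Igf2, -1.83 for Igfbp4, 1.33 for Igfbp5, -3.00 for Igfbp2, 0.01 for Igfbp3, 4.24 for Igfbp6, 0.77 for Igf2r, 1.26 for Igfbp7 and 5.89 for Igf2bp1. It turned Igf1r (-0.40), Igf2bp2 (0.11), Akt1 (0.14) and Rptor (0.07). The correlations of deviations for the same-numbered libraries were 0.181 and 0.226 against -0.323 to 0.2 for the others. With 2 such pairs it cannot be told whether the libraries share more than a number. With 1 library left out the log2 difference ranged from -0.44 to 0.30 for Igf1r, -0.09 to 0.81 for Igf2r, -2.17 to 2.43 for Igfbp2, -0.23 to 0.89 for Igfbp3, -3.96 to 1.49 for Igfbp6 and -2.13 to 4.67 for Igfbp7. Outside the members it ranged from -9.45 to 7.44 for Irs4, -2.37 to 0.03 for Sos1, -0.12 to 3.10 for Stc1, -0.75 to 2.90 for Igf2bp1, -0.48 to 0.17 for Igf2bp2, -0.31 to 0.10 for Akt1 and -0.11 to 0.08 for Rptor. The cause of these turns was not tested. Taking the longest transcript for the exon union moved the mean level of Igf1r over the libraries from 18 to 26.4 CPM per kilobase. It also put Igf1r above Igfbp4 in WT replicate 3. Few counts lie behind the values of Igfbp6 (0 counts) and H19 (2 counts) in WT replicate 1 and of Igf2bp1 in G328V replicate 2 (4 counts).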
